A study of Mus musculus with 5 samples.

Results

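Histone acetylation was examined at 7 chemokine receptor genes of T cells, Cxcr5, Cxcr3, Cxcr4, Cxcr6, Ccr2, Ccr7 and Ccr9, out of 21938 protein-coding genes of the annotation. The genes were chosen by name, and a ChIPseq peak was taken for a gene when it overlapped the gene body or the 30 kb on either side of it by at least 1 bp. This gave 53 distinct peaks over 5 libraries, which merged into 22 separate sites. At Cxcr5, sites in an intron and beside the neighbouring gene Bcl9l carried a peak in all 5 libraries, and Ccr7 and Cxcr6 each had 1 further site of this kind, while no library had a peak within 3 kb of a Cxcr5 start site. Peaks covered more bases in both WT than in all 3 TPdh-/- libraries at 5 of the 7 loci. With lists reduced to the same number of peaks this held at Cxcr5 alone, and there only with the peak at Bcl9l counted. Since the exact permutation test of these libraries gives no p under 0.2, no comparison of the groups could pass 0.05.

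Chemokine receptors are G protein-coupled receptors of the cell surface that turn a gradient of chemokine into directed migration, mainly through Gi proteins, PI3K gamma and the Rac activator Dock2. CXCR5 binds CXCL13 and leads lymphocytes into B cell follicles, and CCR7 binds CCL19 and CCL21 and leads naive and central memory T cells into lymph nodes. CXCR3, CXCR6 and CCR2 guide activated T cells to inflamed tissue, CXCR4 retains cells where CXCL12 is made, and CCR9 leads cells to thymus and small intestine. Acetylation of histone lysines neutralises their charge and is found at active promoters and enhancers.

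CD8+ T cells of a memory type, called TM cells in the study, came from 2 WT and 3 TPdh-/- samples. The study's design has more samples per condition, and the others were not analysed here. In TPdh-/- mice a CD4-Cre transgene deletes Pdha1, the E1 alpha subunit gene of the mitochondrial pyruvate dehydrogenase complex on chromosome X, and since CD4 is expressed in thymocytes before the CD4 and CD8 lineages part, both lineages carry the deletion. Both groups were made in vitro, per the methods from OT-I cells, whose T cell receptor recognises a peptide of ovalbumin, by activation with that peptide and culture in IL-15. The study used mice of both sexes. The sample labels give neither age nor sex, and do not say that the libraries came from separate mice, so the spread between them may be technical. The methods describe the antibody as one against acetyllysine of histones. The labels name lysine 18 and also acetylated histones, so the residue that the peaks stand for is open. In bulk chromatin, fewer cells with a mark and less of the mark per cell cannot be told apart.

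The 5 lists held 15962 and 8859 peaks in WT replicates 1 and 2, and 4920, 5419 and 9418 peaks in TPdh-/- replicates 1, 2 and 3. The protocol in the labels names 37000000 reads as the least to be sequenced. How many reads each library had cannot be read from the lists, and no counting interval is given. A site without a peak may hold acetylation under the calling threshold, which lay at a −log10 q between 1.00 and 1.03. Of 8 T cell marker genes, 8 and 6 had a peak within 3 kb of a start site in the WT libraries and 2, 4 and 6 in the TPdh-/- libraries. Cd8b1 had one in all 5 libraries and Cd8a in WT replicate 1 alone, whereas Cd4 had one in both WT libraries and in no TPdh-/- library, and Zbtb7b, the other CD4 marker, in WT replicate 1. Of 7 B cell markers 1 had a promoter peak, and of 3 NK cell markers only Eomes, each in WT replicate 1 alone, and none of 6 myeloid markers had one in any library. Eomes is also listed below among the transcription factors known for these receptors, so it does not set NK cells apart. It is part of the NK cell count of WT replicate 1 that follows. In the gene body or within 30 kb, where neighbouring genes also lie, 4 and 2 of the B cell markers had a peak in WT and 2, 2 and 4 in TPdh-/-, 3 and 2 of the myeloid markers in WT and 2, 1 and 2 in TPdh-/-, and 2 and 0 of the NK cell markers in WT and 0, 0 and 1 in TPdh-/-. Cd79a and Cd14 were covered in this way in all 5 libraries. Of all protein-coding genes, 64.1% and 48.3% had a peak in this window in WT, and 33.4%, 35.0% and 51.0% in TPdh-/-. Within 3 kb of a start site these shares were 42.1% and 24.8% in WT, and 15.3%, 16.5% and 27.9% in TPdh-/-. The part of other cell types in the values below was not tested.

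**Figure D1:**
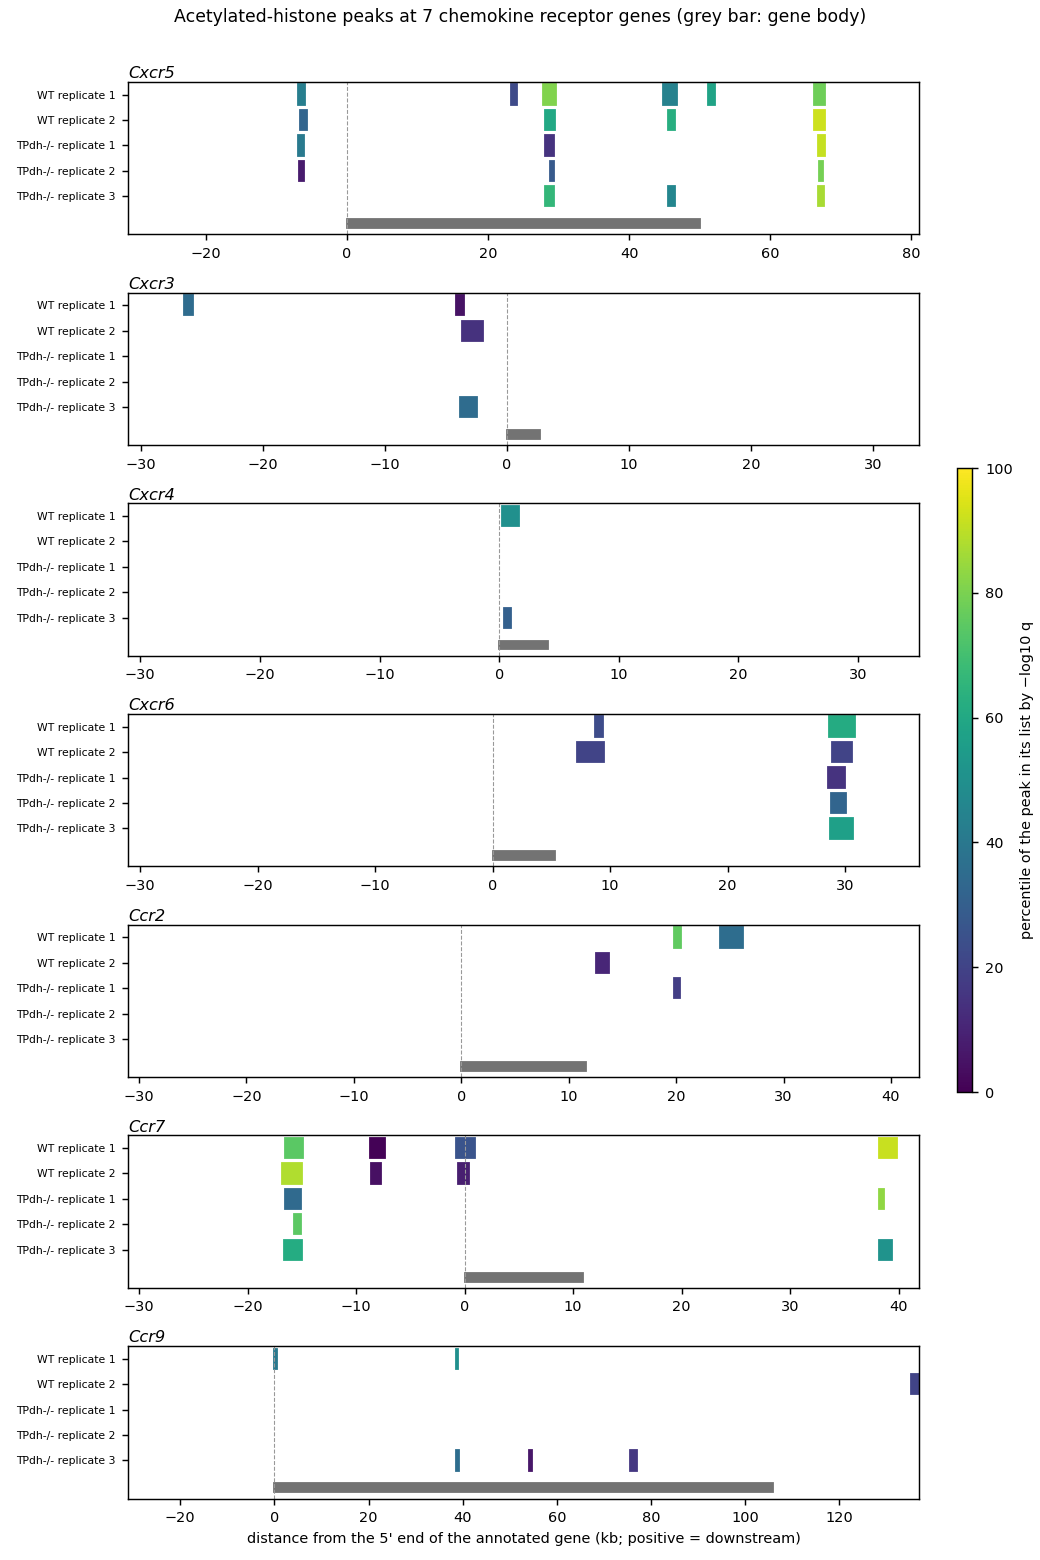
Peaks called at each receptor gene in each of the 5 libraries, against distance in kb from the 5′ end of the annotated gene, with the gene body in grey and the colour of a peak giving its percentile by −log10 q in its own list. Cxcr5 and Ccr7 hold the most peaks, and Cxcr3, Cxcr6 and Ccr2 hold none within the gene body.

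Cxcr5 had the most peaks of the 7 genes. The gene lies on the reverse strand of chromosome 9, at chr9:44511787-44561877 of GRCm38, and its annotated transcripts start between 44526421 and 44561877, so that the long transcripts hold an intron over most of the locus. There were 6 and 4 peaks there in WT, and each of the 3 TPdh-/- libraries had 3. These peaks fell on 6 sites, of which 3 lay in introns, 1 upstream of the gene and 2 beyond its 3′ end, both with Bcl9l as the nearest gene. The window grows with the length of the gene, 50091 bp for Cxcr5, and from 2735 bp for Cxcr3 to 105892 bp for Ccr9. Peak counts and covered lengths were not scaled by it.

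The site in an intron that all 5 libraries shared ran from chr9:44532188 to 44534052, and began 5606 bp upstream of the start site at 44526582 from which the shorter transcripts run. Its fold enrichment, the authors' ratio over the background estimated by MACS2, was 2.13 and 2.08 in the WT libraries and 2.08, 2.07 and 2.21 in TPdh-/- replicates 1, 2 and 3. The values of the groups overlapped, between 2.07 and 2.21. The −log10 q was 7.81 and 3.76 in WT, and 1.53, 1.98 and 4.54 in TPdh-/-. The peak stood at ranks 2996 and 3540 in the WT lists and at ranks 4203, 3899 and 3195 in the TPdh-/- lists. As a percentile within the list, where 100 is the strongest peak, these were 81.2 and 60.0 against 14.6, 28.1 and 66.1, so TPdh-/- replicate 3 stood among the WT libraries and TPdh-/- replicates 1 and 2 below them. Peak widths of 1865 and 1416 bp in WT stood against 1299, 557 and 1178 bp, and here the groups did not overlap.

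The bases that all 5 peaks share span chr9:44532570-44533053. The 300 bases at their centre are shown because no other site within the Cxcr5 gene body was acetylated in every library. They are given on the strand of the gene, reverse, and were read from GRCm38 at chr9:44532662-44532961.
Cxcr5 intron: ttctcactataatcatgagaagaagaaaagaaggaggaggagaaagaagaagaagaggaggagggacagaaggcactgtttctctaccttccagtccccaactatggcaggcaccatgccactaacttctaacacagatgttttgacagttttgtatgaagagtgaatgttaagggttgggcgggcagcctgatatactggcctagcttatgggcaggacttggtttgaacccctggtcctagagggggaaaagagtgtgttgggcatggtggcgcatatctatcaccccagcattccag
This stretch overlaps no annotated exon, has a GC content of 48.3% with 2 CpG dinucleotides, and 26.7% of it is marked as repeat. Over the 300-base centres of all 18410 merged regions of the 5 lists the medians were 50.3% GC, 5 CpG and 8.33% repeat. None of 7 motifs searched on both strands occurred in it. These motifs, chosen with earlier results of the data known, were RUNX (TGTGGT), ETS (AGGAAG), TCF/LEF (CTTTGA), T-box (GGTGTG), AP-1 (TGANTCA), FOXO (GTAAACA) and KLF (CCACCC). They occurred in 21.1%, 39.2%, 17.9%, 18.8%, 8.08%, 4.43% and 27.2% of the regions in that order, and in 16.8%, 35.4%, 16.0%, 19.0%, 7.81%, 3.65% and 31.5% of 32851 RefSeq promoters of GRCm38.p6 of the same length. The RUNX and T-box letters can share bases where both occur. A stretch without these letters says nothing of the factors themselves.

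The other shared site of the Cxcr5 window lay beyond the 3′ end of the gene, at chr9:44494055-44495682, within Bcl9l, a cofactor gene of beta-catenin, whose start site was nearer, at 2625 bp. Its fold enrichment was 2.30 and 2.67 in WT and 3.16, 2.69 and 2.75 in TPdh-/- replicates 1, 2 and 3, so that all 3 TPdh-/- values stood above both WT values. Its percentile was 78.0 and 92.4 against 91.1, 79.1 and 87.0, with overlap, and its width was 1628 and 1526 bp against 1024, 685 and 944 bp, without overlap. It was the strongest peak of the Cxcr5 window in every library but WT replicate 1. The peak 5646 bp upstream of the 5′ end of Cxcr5, at chr9:44567523-44568814, was called in every library but TPdh-/- replicate 3. There the fold enrichment was 2.19 and 2.25 in WT and 2.47 and 2.21 in TPdh-/- replicates 1 and 2, and the percentile 42.3 and 32.3 against 40.6 and 7.26. An intronic site at chr9:44515069-44517049, toward the 3′ end of the gene, was called in both WT libraries and TPdh-/- replicate 3, with a fold enrichment of 1.70, 1.97 and 1.97 and percentiles of 43.9, 62.7 and 45.9. Both remaining sites, at chr9:44509750-44510755 and chr9:44537757-44538688, were called in WT replicate 1 alone, at fold enrichments of 2.1955 and 1.72.

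By the percentile of the strongest peak in the window, Cxcr5 stood at 81.2 and 92.4 in WT and at 91.1, 79.1 and 87.0 in TPdh-/-. The difference of the means, WT minus TPdh-/-, was 1.12 percentile points (exact permutation test, two-sided, p = 0.8), and the groups overlapped. The 3 genes most like it in this measure, leaving out those within 1 Mb, were Ubox5, Fastkd5 and Lzts3 of chromosome 2, at a mean absolute difference of 2.67 percentile points over the 5 libraries. These 3 genes had equal values in each library, 81.3 and 93.1 in WT and 87.6, 78.3 and 95.3 in TPdh-/-, since their windows share the same peaks.

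Ccr7, on the reverse strand at chr11:99144196-99155077, had 4 and 3 peaks in WT, and 2, 1 and 2 in TPdh-/-. Its shared site lay 14924 bp upstream of the start site, in no annotated gene, at chr11:99170001-99171885. There the fold enrichment was 1.71 and 1.93 in WT and 1.90, 2.07 and 1.84 in TPdh-/-. The −log10 q was 6.57 and 6.83 in WT and 2.08, 4.25 and 4.19 in TPdh-/-, so both WT values stood above all 3 others. The ranks, however, were 4105 and 1053 against 3231, 1374 and 3612, at percentiles of 74.3 and 88.1 against 34.3, 74.7 and 61.6, where TPdh-/- replicate 2 came between the WT libraries. Widths were 1648 and 1846 bp against 1438, 664 and 1693 bp and also overlapped.

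The 300 bases at the centre of the shared part of this site are shown as the other distal stretch acetylated in every library whose nearest start site is that of a receptor gene. They lie at chr11:99170333-99170632 of GRCm38 and are given on the reverse strand, with the matches to the motifs above in capitals.
Ccr7 upstream: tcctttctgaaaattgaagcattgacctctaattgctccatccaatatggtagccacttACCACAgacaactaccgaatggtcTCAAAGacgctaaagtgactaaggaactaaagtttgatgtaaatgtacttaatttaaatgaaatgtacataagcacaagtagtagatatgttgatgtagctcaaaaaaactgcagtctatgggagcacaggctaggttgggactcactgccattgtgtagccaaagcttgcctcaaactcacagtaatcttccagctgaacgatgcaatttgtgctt
Here the capitals mark a RUNX match at base 60 and a TCF/LEF match at base 84, both read on the opposite strand. The stretch has 39.7% GC and 3 CpG, below the medians over all regions. As a description, these letters occur in 21.1% and 17.9% of regions.

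Over the Ccr7 start site itself, at chr11:99154141-99155830, a peak was called in both WT libraries and in no TPdh-/- library. It was weak in both, with a fold enrichment of 1.79 and 1.93, a −log10 q of 2.43 and 1.45, and percentiles of 25.9 and 8.28. A further weak site 7302 bp upstream, at chr11:99162379-99163804, followed the same pattern, with a fold enrichment of 1.41 and 1.57 at percentiles of 0.69 and 4.19. The remaining site lay 38158 bp or more downstream of the start site, on the side of Tns4, the nearest gene and one that codes for a focal adhesion protein, and was called in WT replicate 1 and TPdh-/- replicates 1 and 3. Its percentile was 91.8 in WT replicate 1, 83.6 in TPdh-/- replicate 1 and 51.4 in TPdh-/- replicate 3, and its fold enrichment was 2.1952, 2.52 and 1.96. WT replicate 2 and TPdh-/- replicate 2 had no peak at this site.

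The 300 bases before the Ccr7 start site, chr11:99155078-99155377, are printed because this was 1 of 3 sites called in both WT libraries and in no TPdh-/- library.
Ccr7 start site: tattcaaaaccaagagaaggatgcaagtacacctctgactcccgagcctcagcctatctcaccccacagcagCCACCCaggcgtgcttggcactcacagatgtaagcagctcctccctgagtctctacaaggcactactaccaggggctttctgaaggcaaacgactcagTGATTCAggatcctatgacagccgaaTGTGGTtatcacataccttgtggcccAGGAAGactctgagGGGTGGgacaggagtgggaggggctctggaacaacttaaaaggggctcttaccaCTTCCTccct
In capitals stand, from the 5′ end, a KLF match at base 73, an AP-1 match at base 171, a RUNX match at base 197, an ETS match at base 223, a KLF match at base 237 and an ETS match at base 291. The stretch has 53.7% GC, 4 CpG and no repeat. A match is a description of letters and not a measured site of binding.

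Cxcr6, on the forward strand at chr9:123806475-123811760, had no peak in its gene body. A site 7165 bp downstream of its start site, at chr9:123813664-123815940 in an intron of the neighbouring gene Fyco1, was called in both WT libraries and in no TPdh-/- library. Its fold enrichment was 1.60 and 1.78, its −log10 q 2.27 and 1.86, and its percentile 23.0 and 20.1, so it too stood low in both lists. The peak of WT replicate 2 at this site, 2277 bp wide, also reached 667 bp into the window of Ccr9, and is counted once among the 53 peaks.

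The 300 bases at the centre of the part common to both peaks, chr9:123815355-123815654 of GRCm38 on the forward strand, are shown for comparison with the Ccr7 start site.
Cxcr6 downstream: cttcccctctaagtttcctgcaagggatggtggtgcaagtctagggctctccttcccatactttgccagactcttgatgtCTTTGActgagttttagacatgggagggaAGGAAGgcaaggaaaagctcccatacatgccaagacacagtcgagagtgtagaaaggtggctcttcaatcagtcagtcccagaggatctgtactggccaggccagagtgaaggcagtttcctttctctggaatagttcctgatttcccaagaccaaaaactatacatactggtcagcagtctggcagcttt
The capitals mark a TCF/LEF match at base 81 and an ETS match at base 110, letters that occur in 17.9% and 39.2% of all regions.

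The shared site of the Cxcr6 window lay farther off, 28482 bp or more downstream of its start site, at chr9:123834981-123837300. It lies within Fyco1, a gene of autophagosome transport, whose start site was nearer, at 7306 bp. The fold enrichment was 1.99 and 1.92 in WT and 2.07, 2.13 and 2.16 in TPdh-/-, so all 3 TPdh-/- values stood above both WT values. Its percentile was 61.1 and 19.9 in WT and 14.7, 32.3 and 56.6 in TPdh-/-, and here WT replicate 2 and TPdh-/- replicate 1 were both low.

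**Figure D2:**
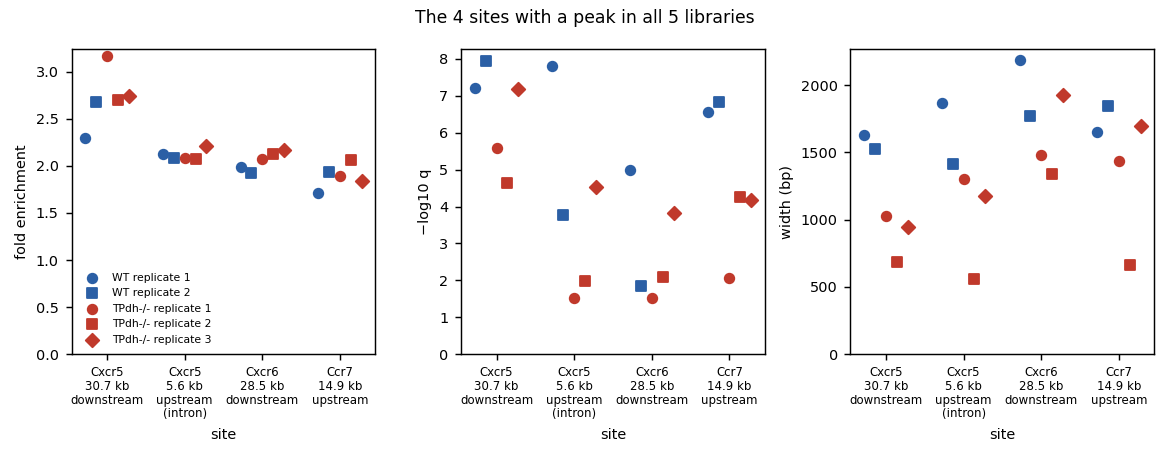
Fold enrichment, −log10 q and width in bp, 1 point per library, at the 4 sites of the receptor loci with a peak in all 5 libraries. Widths of both WT libraries (blue) lie above all TPdh-/- libraries (red) at both Cxcr5 sites, while the fold enrichments of the intronic Cxcr5 site lie between 2.07 and 2.21.

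Cxcr3, on chromosome X at chrX:101731535-101734269 and the receptor of the interferon-induced chemokines CXCL9 and CXCL10, had no peak in its gene body. A site upstream at chrX:101736227-101738463 was called in WT replicates 1 and 2 and in TPdh-/- replicate 3. The fold enrichment was 1.54 and 1.75 in WT and 1.91 in TPdh-/- replicate 3, and the percentile was 4.70 and 14.1 against 35.1, so the highest value of this site came from a TPdh-/- library. Measured from the nearest edge of the peak to the start site, the distance was 3501, 1958 and 2483 bp, which puts the peak of WT replicate 1 outside and the other two inside the 3 kb promoter window. A site 25699 bp upstream was called in WT replicate 1 alone, at a fold enrichment of 2.16 and −log10 q of 2.95.

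Cxcr4, on chromosome 1 at chr1:128588199-128592293, had a single site, which overlapped the gene body. The site, at chr1:128590602-128592032, began 258 bp downstream of the start site and was called in WT replicate 1 and TPdh-/- replicate 3. The fold enrichment was 2.37 and 2.39, the percentile 50.0 and 30.1, and the width 1431 and 610 bp. WT replicate 2 and TPdh-/- replicates 1 and 2 had no peak in the window, so presence did not follow the group.

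Ccr2, on the forward strand at chr9:124101950-124113557, codes for the receptor of CCL2 and had no peak in its gene body in any library. Its window held 2 peaks in WT replicate 1 and 1 peak each in WT replicate 2 and TPdh-/- replicate 1, all outside the gene body and none with Ccr2 as the gene of the nearest start site. TPdh-/- replicates 2 and 3 had no peak in this window.

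Ccr9 is annotated with a long transcript from 123678439, which makes its gene body, chr9:123678439-123784330, span Lztfl1, while its other transcripts start from 123767169 onward. WT replicate 1 had a peak of fold enrichment 2.67 over that start site, which also covers the start site of the amino acid transporter gene Slc6a20a. At the start site of Lztfl1, a gene of ciliary transport, WT replicate 1 and TPdh-/- replicate 3 had a peak, with a fold enrichment of 2.70 and 2.51 and percentiles of 49.9 and 35.2. TPdh-/- replicate 3 alone had peaks in the Ccr9 intron at chr9:123732508-123733249 and chr9:123754066-123755366, of which the latter, 11803 bp upstream of the start site at 123767169, was nearest to Ccr9 itself. Its fold enrichment was 2.26 and its percentile 16.3. These were the 2 of the 22 sites that TPdh-/- and no WT library had.

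**Figure D3:**
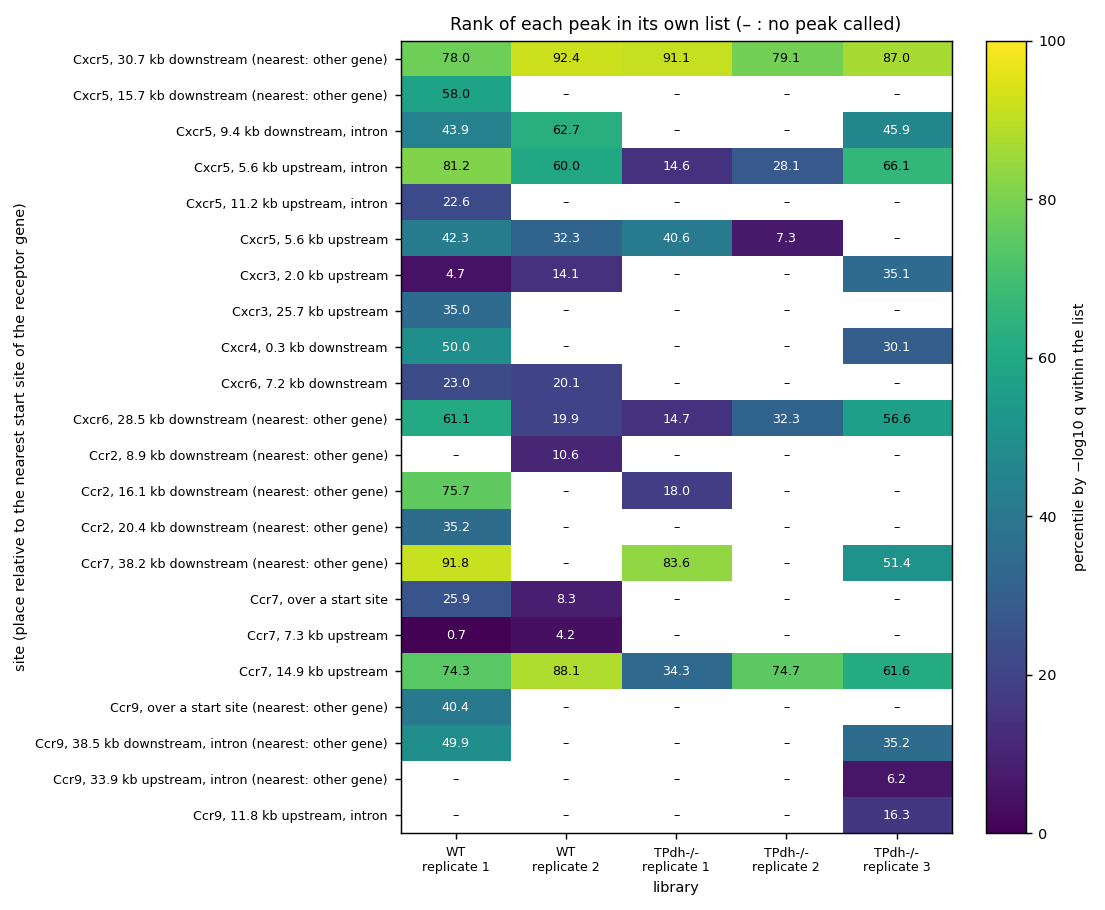
Percentile of each peak by −log10 q within its own list (100 = strongest) at the 22 sites, 1 row per site and 1 column per library, with a dash where no peak was called. The rows filled in all 5 columns are both Cxcr5 sites, the Fyco1 site of Cxcr6 and the upstream site of Ccr7.

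Of the 22 sites, 4 (18.2%) had a peak in all 5 libraries, beside 16.8% of all 18410 merged regions. At 3 sites (13.6%) both WT libraries and none of the TPdh-/- libraries had a peak, beside 5.92% of all regions. These were the start site of Ccr7, the site 7302 bp upstream of it and the site downstream of Cxcr6, and none of their peaks stood above the 25.9 percentile. With 1 or 2 WT libraries and no TPdh-/- library counted together there were 9 sites (40.9%), against 41.1% of all regions, and 2 sites (9.09%) were in TPdh-/- alone, against 8.46%. Peaks in 1 library alone made up 8 sites (36.4%), against 43.4%. Only 12 of the 22 sites had a receptor of the 7 as the gene of the nearest start site. Of the peaks at these genes, 7 of 19 and 4 of 11 in WT and 2 of 7, 2 of 5 and 5 of 11 in TPdh-/- stood above the median −log10 q of their own list.

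In the gene body or within 30 kb, all 7 genes had a peak in WT replicate 1, beside 64.1% of protein-coding genes, and 6 had one in the other WT library, beside 48.3%. In TPdh-/- replicates 1, 2 and 3 these were 4, 3 and 6 genes, beside 33.4%, 35.0% and 51.0%. Cxcr5, Cxcr6 and Ccr7 were the 3 genes with a peak in every library. Within 3 kb of a start site the genes stood close to the background in the 3 longest lists, with 3 and 2 of 7 in WT, beside 42.1% and 24.8%, and 2 of 7 in TPdh-/- replicate 3, beside 27.9%. In TPdh-/- replicates 1 and 2 no receptor gene had such a peak, beside 15.3% and 16.5%. The 3 genes of WT replicate 1 were Cxcr4, Ccr7 and Ccr9, those of WT replicate 2 were Cxcr3 and Ccr7, and those of TPdh-/- replicate 3 were Cxcr3 and Cxcr4. The median over the 7 genes of the percentile of the strongest peak was 61.1 and 20.1 in WT and 14.7, 0 and 35.2 in TPdh-/-, where the median over all genes was 51.5 and 0, and 0, 0 and 5.52. When only peaks with the receptor as the nearest gene counted, a choice made after the data were seen, 5 and 4 genes had a peak in WT, beside 42.4% and 26.9% of all genes, and 2, 2 and 5 in TPdh-/-, beside 16.8%, 17.9% and 29.1%.

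**Figure D4:**
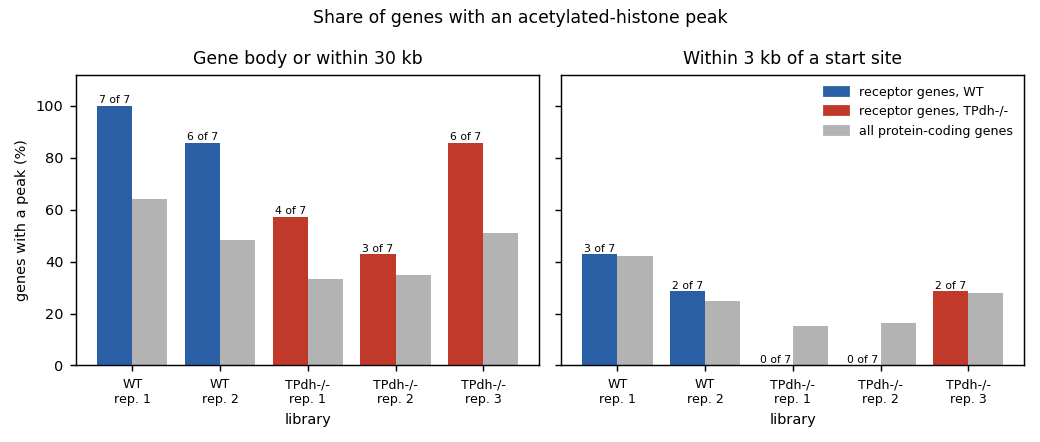
Percentage of the 7 receptor genes (coloured bars) and of all 21938 protein-coding genes (grey bars) with a peak, in the gene body or within 30 kb (left) and within 3 kb of a start site (right), for each library. The receptor bars stand above the grey bars in all 5 libraries on the left, and at 0 in TPdh-/- replicates 1 and 2 on the right.

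The study compared WT with TPdh-/- cells to find whether loss of the pyruvate dehydrogenase complex changes histone acetylation, and the length covered by peaks at each locus was compared to this end. In the Cxcr5 window peaks covered 8407 and 4948 bp in WT against 3058, 2086 and 3064 bp in TPdh-/-. The mean was 6678 ± 2446 bp (SD, n = 2) in WT and 2736 ± 563 bp (SD, n = 3) in TPdh-/-, a difference of 3942 bp (exact permutation test, two-sided, p = 0.2). Since 2 libraries against 3 allow 10 arrangements, 0.2 is the smallest p this test can give, and the adjusted p over all 21938 genes was 1.0 for each of the 7 genes. At Ccr7 the covered length was 6415 and 3869 bp in WT against 1955, 664 and 2889 bp in TPdh-/-, with a difference of the means of 3306 bp (exact permutation test, p = 0.2). In both loci the WT libraries stood apart from the TPdh-/- libraries, with WT replicate 1 far above WT replicate 2.

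Cxcr6 was covered over 2893 and 4047 bp in WT against 1481, 1338 and 1930 bp. For Cxcr3 the values were 1459 and 1761 bp against 0, 0 and 1342 bp, and for Ccr2 they were 2709 and 1176 bp against 581, 0 and 0 bp. These 3 genes also had both WT values above all TPdh-/- values (exact permutation test, p = 0.2 for each). Cxcr4 was covered over 1431 and 0 bp against 0, 0 and 610 bp (exact permutation test, p = 0.8). Ccr9 had 1123 and 667 bp against 0, 0 and 2684 bp (exact permutation test, p = 1.0), and its highest value came from TPdh-/- replicate 3.

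Both WT libraries thus stood above all 3 TPdh-/- libraries at 5 of 7 loci, beside 18.7% of all genes and 28.1% of the 14609 genes with a peak in at least 1 library, and at none of the 7 did all TPdh-/- libraries stand above both WT libraries, beside 0.0456% of all genes. Once all lists were shortened to 4920 peaks, the strongest by −log10 q and as many as the shortest list holds, the separation was seen at 1 of 7 loci, beside 9.96% of all genes. It was Cxcr5, with 3493 and 3902 bp in WT against 3058, 1242 and 2122 bp. These lengths include the peak within Bcl9l, of 1628 bp in WT replicate 1 and 1024 bp in TPdh-/- replicate 1. Without that peak WT replicate 1 kept only the intronic peak of 1865 bp. TPdh-/- replicate 1 kept peaks of 1299 and 735 bp, which together are longer, so the groups then overlapped at Cxcr5 too. Cxcr6 turned, with no peak left in WT against 1481, 1338 and 1930 bp, and Cxcr3, Cxcr4 and Ccr9 had no peak left in any library. By the percentile of the strongest peak, Ccr7 alone of the 7 separated the groups, at 91.8 and 88.1 in WT and 83.6, 74.7 and 61.6 in TPdh-/- (exact permutation test, p = 0.2, adjusted p over all genes 1.0). In WT replicate 1 and TPdh-/- replicate 1 that peak was the one on the side of Tns4, and in the other libraries the upstream one. With only peaks nearest to Ccr7 the groups overlapped, at 74.3 and 88.1 against 34.3, 74.7 and 61.6, and with lists of equal length they overlapped too, at 73.3 and 78.6 against 83.6, 72.1 and 26.6.

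**Figure D5:**
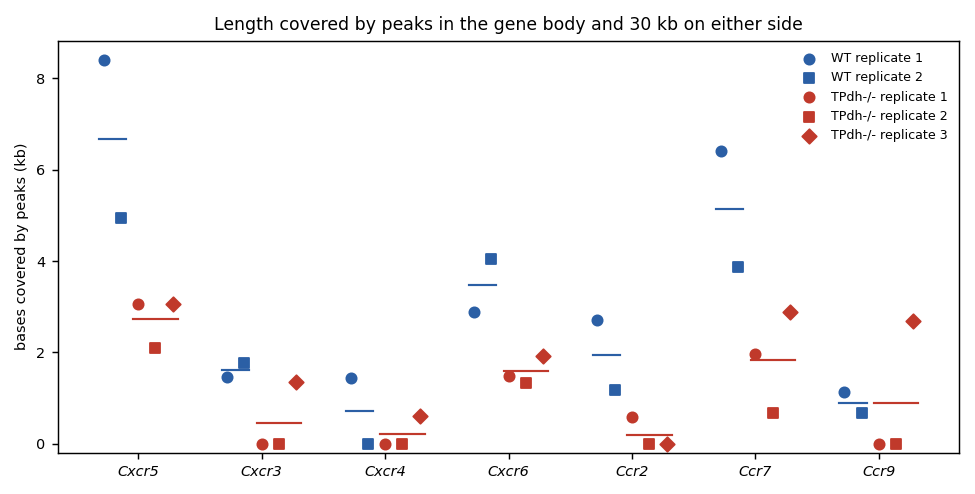
Bases covered by peaks, in kb, in the gene body and the 30 kb on either side of each receptor gene, 1 point per library with a line at the mean of WT (blue, n = 2) and TPdh-/- (red, n = 3). Both WT points lie above all TPdh-/- points at Cxcr5, Cxcr3, Cxcr6, Ccr2 and Ccr7, and not at Cxcr4 and Ccr9.

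The 4 shared sites allow a comparison of peak values where every library has one. They were set beside the 3099 regions with a peak in all 5 libraries, a test added after the data were seen. Fold enrichment is a single value for a whole broad peak and not a summit height, and widths also differed between libraries. A site enters only where every list had a call, so weaker signal in a list is left out. At the intronic Cxcr5 site the fold enrichment differed by -0.0172 (WT minus TPdh-/-, exact permutation test, two-sided, p = 1.0), while the median difference over the 3099 regions was 0.0087. Its −log10 q differed by 3.10 (exact permutation test, p = 0.4) and its width by 629 bp (exact permutation test, p = 0.2), beside medians of 2.62 and 264 bp. The width difference was larger than that of 89.0% of the regions. At the Bcl9l side of Cxcr5 the fold enrichment differed by -0.381 and at Fyco1 by -0.166 (exact permutation tests, p = 0.2 for each), with all TPdh-/- values above both WT values, a pattern of 11.6% of the regions. Only 2.29% of the regions had a lower difference in fold than the Bcl9l side, which also differed by 1.76 in −log10 q and by 693 bp in width (exact permutation tests, p = 0.2 for each). Upstream of Ccr7 the difference was -0.115 in fold and 3.20 in −log10 q (exact permutation tests, p = 0.6 and 0.2). Both WT values stood above all TPdh-/- values in −log10 q at 2 of the 4 sites, beside 33.2% of the regions, and in width at 2 of the 4 sites, beside 33.5%. Adjusted over the 3099 regions, the p-values of these 4 sites ranged from 0.57 to 1.0.

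Among the other genes of the pathway, promoter peaks were called at 3 and 1 of 16 further chemokine receptor genes in WT, beside 42.1% and 24.8% of all genes, and at 1, 0 and 1 in TPdh-/-, beside 15.3%, 16.5% and 27.9%. In 13 of them none was called in any library. Both WT libraries covered more bases than all TPdh-/- libraries at 2 of the 16. Of 12 listed chemokine genes that code for ligands of the 7 receptors, 11 were found in the annotation, and of these only Ccl25, whose product is the ligand of CCR9, had a promoter peak. It was called in all 5 libraries, at percentiles of 81.8 and 50.2 in WT and 67.0, 71.4 and 51.8 in TPdh-/-. For the listed genes the nearest start site of a peak was not looked up, so the Ccl25 peak may be that of a neighbouring gene. Of 18 genes of signalling below the receptors, 16 and 10 had a promoter peak in WT and 7, 8 and 15 in TPdh-/-. Those with one in every library were Gnai3, which codes for a Gi alpha subunit, Pik3cg, Dock2, Grk6, a receptor kinase gene, Rgs1, which codes for a brake on Gi signalling, and Coro1a, of the actin cytoskeleton. Coro1a stood at percentiles of 92.3 and 90.0 in WT and 74.0, 76.3 and 94.5 in TPdh-/-.

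Of 8 genes of transcription factors known for these receptors, 5 and 2 had a promoter peak in WT, beside 42.1% and 24.8% of all genes. In TPdh-/- these were 1, 1 and 3, beside 15.3%, 16.5% and 27.9%. Bcl6, whose product is needed for the CXCR5+ follicular fate of helper T cells, was the gene with one in every library, at percentiles of 85.7 and 85.1 in WT and 44.2, 96.5 and 61.8 in TPdh-/-, with overlap of the groups. The genes of lymph node egress were S1pr1, S1pr4 and Cd69. Of these 3 genes, 3 and 3 had a promoter peak in WT, beside 42.1% and 24.8% of all genes. In TPdh-/- 2, 3 and 3 had one, beside 15.3%, 16.5% and 27.9%. S1pr4, which codes for a sphingosine-1-phosphate receptor, stood in every list above the strongest peak of the 7 receptor genes, at percentiles of 96.8 and 98.9 in WT and 96.3, 95.2 and 97.3 in TPdh-/-. S1pr1, the receptor gene on which egress depends, stood at 66.2 and 51.6 in WT and 21.7, 11.2 and 69.1 in TPdh-/-. Covered length was above all TPdh-/- libraries in both WT libraries at 1 of 11 ligand genes, 1 of 18 signalling genes, 2 of 8 transcription factor genes and 1 of 3 egress genes, beside 18.7% of all genes.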

How the data were processed

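Peak lists of acetylated-histone ChIPseq were analysed from 5 libraries, 2 WT and 3 TPdh-/-, grouped by the genotype in the labels. Per the methods and the submitters' processing notes, reads were checked with FastQC 0.11.9, aligned to GRCm38/mm10 with BWA 0.7.17 and filtered with SAMtools 1.15.1 to unique reads outside blacklisted regions, and the authors called broad peaks in each library with MACS2 2.2.6. The notes also name DiffBind 3.2, ChIPseeker 1.28.3 and R 4.1.0. DiffBind compares reads, and that step was not repeated here. An input control is not named in the sources used here. The deposited lists give each peak a fold enrichment, a linear ratio over the background of MACS2. The authors' lists also give a −log10 q, which was used to rank peaks within a list (rank 1 and percentile 100 are the strongest). Their −log10 p, and after it the fold enrichment, served only to order ties when lists were cut to equal length. Their score was not used.

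Peaks were placed with the GENCODE M21 annotation of GRCm38, with coordinates counted from 1. A peak belonged to a gene when it overlapped the gene body or 30 kb on either side by at least 1 bp, and was a promoter peak within 3 kb of an annotated start site. Regions are peaks of all lists merged on overlap. Covered length and the percentile of the strongest peak (0 where no peak was called) were computed for all protein-coding genes. Groups were compared by an exact permutation test over the 10 arrangements of the libraries, two-sided as double the smaller one-sided p, with Benjamini-Hochberg adjustment over all genes or regions. Python 3.11.15, numpy 2.4.6, pandas 2.3.3, scipy 1.17.1 and matplotlib 3.10.9 were used, and the measures were tested on simulated data.

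The members, the gene and marker lists and the tests were chosen with earlier results of these data known. Beside the 7 receptors, genes were named where their start site was nearest to a peak of a receptor, as the 3 most like Cxcr5, or from a list where a promoter peak was called in all libraries or in both WT and no TPdh-/- library. Markers found in few libraries were named after their values were seen. Some items that this rule selects are not reported here. Also chosen after the data were seen were the tests at shared sites, the motifs and the sequences chosen. Alternatives were minimum values of 2 and 5 for −log10 q, equal list lengths, windows of 10 and 100 kb, promoters of 1 kb, peak midpoints, ranking by fold, peaks nearest to the gene, leaving out each library, and the replicate number as a block. The promoter table of RefSeq, for GRCm38.p6, held 5 of the 7 receptors.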

Additional observations from a re-analysis of the deposited data

How the results depend on the processing

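Peak numbers ran from 4920 to 15962 between lists, and the depth of each library, which is unknown beyond a stated minimum, limits what a missing peak can show. With lists of equal length (4920 peaks) the mean number of receptor genes with a peak, WT minus TPdh-/-, turned from 2.17 to -0.833, with 3 and 2 genes in WT and 4, 3 and 3 in TPdh-/-. The same difference for promoter peaks went from 1.83 to 0 with equal lengths and at a minimum −log10 q of 5. The count of loci covered more in both WT libraries, 5 of 7, was 1 at a minimum −log10 q of 2, 2 at a minimum of 5 and 1 with equal lengths. The count of loci whose strongest peak ranked higher in both WT libraries, 1 of 7, was 0 with equal lengths, 1 with peaks nearest to the gene (Cxcr6 in place of Ccr7), 2 with a window of 10 kb, 6 with 100 kb and 4 with the replicate block. Leaving out 1 library gave 1 to 5 loci for it, with 2 without WT replicate 1, 5 without WT replicate 2, 2 without TPdh-/- replicate 1 and 3 without TPdh-/- replicate 3.

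Of 189 values of single loci under these alternatives, 153 had the direction of the report, 20 were reversed and 16 were 0. In covered length (bp, WT minus TPdh-/-), Cxcr3 was -64.8 at a minimum −log10 q of 2 and Cxcr6 -1583 with equal lengths. Ccr9 was -333 with 10 kb and with midpoints and -434 with peaks nearest to it, and -447 to 895 leaving out 1 library (-228 without WT replicate 1, -447 without TPdh-/- replicate 1 or 2). Cxcr4 ran from -203, without WT replicate 1, to 1228. In percentile points of the strongest peak, Cxcr5 was -18.3 with equal lengths, -19.6 by fold and -4.48 (without WT replicate 2) to 6.72 leaving out 1 library, with -2.19 without TPdh-/- replicate 2. Cxcr6 was -19.0, -2.31 and -14.5 (without WT replicate 1) to 26.6, with -3.87 without TPdh-/- replicate 1. Cxcr3 was -2.30 with 10 kb, Ccr9 -5.42 with peaks nearest to it, and Cxcr4 ran from -10.0, without WT replicate 1, to 39.9. The cause of these changes was not tested.

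The labels number replicates 1 and 2 in both groups without saying that numbers pair samples. The replicate 1 minus 2 differences in covered length over all genes correlated at -0.0163 between the groups. With the number as a replicate block, leaving out TPdh-/- replicate 3, receptor genes with a peak differed by 3, and 6 loci were covered more in WT.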
